A study of Mus musculus with 6 samples.

Results

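The genes described here are 4 cytokines of the IL6 family (IL6, IL11, LIF and OSM), 3 receptor chains (IL6ST, which encodes gp130, LIFR and OSMR) and 2 intracellular inhibitors of their signal (SOCS1 and SOCS3). They were selected by symbol, with earlier results of these data known, and all 9 stood among the 14915 gene symbols of the deposited table. The study applied RNA-seq to the mouse melanoma line B16F10. Libraries labelled WT came from cells with the WT genotype, and libraries labelled S127A, by their labels, from B16F10 cells of the ZBTB5-S127A genotype, in which alanine replaces a serine of the transcription factor ZBTB5 that can be phosphorylated. Both groups received TNFα, an inflammatory cytokine, while amino acids were limited, and each held 3 libraries. No untreated library was analysed here, so differences are between genotypes and say nothing on how either responded to TNFα. How many clones each line represents, and whether replicates were separate cultures, is not given in the sources used here, so the p-values measure only the spread between these libraries, which may be technical.

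Cytokines of the IL6 family signal through gp130, a receptor chain that most cell types make. IL6 and IL11 first bind a chain of their own (IL6R or IL11RA) and then bring gp130 molecules together, LIF pairs gp130 with LIFR, and OSM in the mouse pairs it mainly with OSMR. The assembled receptors activate Janus kinases, which phosphorylate STAT3 and start the ERK cascade. STAT3 in turn induces SOCS3, which binds gp130 and its kinases and shuts the signal down. SOCS1 inhibits Janus kinases more broadly, in particular after interferons. In many cells TNF and NF-kB induce IL6 and LIF.

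Values are TPM, a transcript abundance normalised for gene length and library total, so levels of different genes can be compared. Changes are differences of log2(TPM + 1), taken as S127A minus WT and too small for genes of low level, and adjusted p-values are from limma. Means are given ± SD with n = 3. The depth of the libraries is unknown because TPM keeps none. The edited gene, ZBTB5, was listed at 15.5 ± 0.540 TPM on average in WT and at 8.90 ± 0.569 TPM in S127A, and its level per gene does not show the substitution. The melanocyte markers that define the line were far lower in the libraries labelled S127A. All 7 fell, and their summed level was 14911 to 15194 TPM in WT and 26.8 to 32.4 TPM in S127A. SOX10, a transcription factor of the melanocyte lineage, went from 341 ± 4.64 to 0.603 ± 0.116 TPM. MITF had the highest mean of the 7 in S127A, at 8.17 ± 0.487 TPM against 143 ± 9.67 TPM in WT. The table cannot settle whether the libraries labelled S127A come from the stated line, so a difference below is one between libraries so labelled. The 10 fibroblast markers summed to 16.1 to 17.2 TPM in WT and 301 to 313 TPM in S127A, most of the latter being COL1A2. LUM and THY1 were at 0 in every S127A library. Of 6 tested, 5 were higher and 1 lower, against 40.2% and 49.8% of all tested genes. The test required a mean of at least 1 TPM over all libraries. COL1A1, PDGFRA and FAP met it through S127A alone, so these had to differ. The same holds for POSTN and the melanocyte markers TYR and SOX10, which met it through WT alone. The 6 listed of 8 immune markers summed to 7.20 to 8.28 and 48.6 to 51.3 TPM, most of the latter being CD14, while PTPRC, which marks all leukocytes, stayed at 0.1 TPM or less. The 8 listed of 9 endothelial or epithelial markers summed to 0.230 to 0.400 and 63.4 to 64.2 TPM, nearly all of the latter KRT18, and CDH5 was at 0 in 5 of the 6 libraries. These markers moved with every difference below. Their part in those differences was not tested, and in bulk RNA fewer cells of a type and less RNA per cell cannot be told apart.

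In WT the mRNA of gp130 was listed with little mRNA of the 4 ligands, and in S127A LIF mRNA was abundant. CNTF, CLCF1 and CTF1, other ligands taken up below, are not counted here. Each of them had a mean above 1 TPM in WT. The 4 ligands together summed to 1.67 to 2.13 TPM in the WT libraries and to 113 to 117 TPM in the S127A libraries, and LIF made up at least 93.7% of the latter sum. The 3 receptor chains summed to 52.9 to 57.3 TPM in WT and 80.3 to 85.1 TPM in S127A, at least 96.1% of it gp130 in every library. Both inhibitors together went from 4.12 to 4.73 TPM to 20.9 to 25.3 TPM. The rises fell into a 97.0-fold one (LIF), those of 4.30 to 6.92 times (IL11, SOCS1 and SOCS3) and those under 2 times (IL6ST and OSMR).

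**Figure D1:**
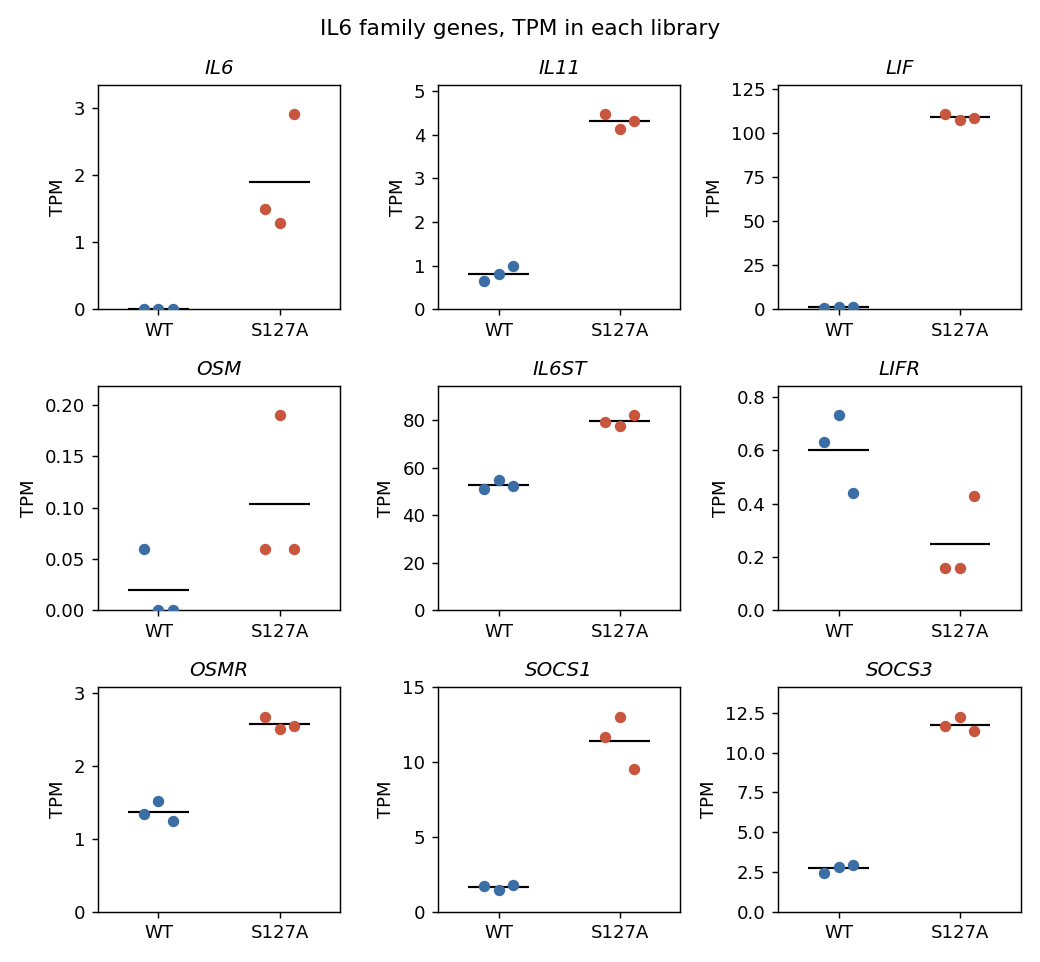
Level in TPM (y axis, each panel with its own scale from 0) of the 9 genes in the WT (blue) and S127A (red) libraries; each point is 1 library and the black line is the mean of 3. The groups are apart for every gene except OSM, and the S127A points are the lower ones only for LIFR.

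Of the 9 genes, 6 had a mean of at least 1 TPM over all libraries and were tested, and 6 of these 6 rose. Of all 10348 genes tested, 90.0% changed, with 40.2% higher and 49.8% lower in S127A, so that passing the test sets no gene apart here. A rise of at least 1 on the log2 scale was found for 15.5% of tested genes and for 4 of the 6. IL11 entered the test through its S127A level alone, since its WT mean was under 1 TPM, and so had to differ. IL6, OSM and LIFR stayed under that mean and are given as values. Counting all 9, the groups did not overlap for 7 genes that were higher in S127A and 1 that was lower. Over all listed genes 33.5% were higher and 38.9% lower without overlap. The median difference was 1.49 over the 9 genes, the value of IL6 itself, and 0.00 over all listed genes on the log2 scale. All listed genes include those under the filter. The 9 genes were chosen with earlier results of these data known, so these comparisons are a description only. For any single gene an exact two-sided permutation test of 3 against 3 libraries cannot go below p = 0.1.

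LIF, a cytokine named for inhibiting leukaemia cells and known for holding stem cells undifferentiated, had the largest difference of the 9. It stood at 0.95, 1.28 and 1.14 TPM in the WT libraries and at 110.83, 107.39 and 108.7 TPM in the S127A libraries. Every S127A library was far above every WT library, and the replicates of each group lay close together. The mean rose 97.0-fold in TPM, and the change was 5.70 on the log2 scale (SE 0.0641, adjusted p = 4.48e-14). Only 83 of the 10348 tested genes (0.802%) had a larger rise. Over the 6 libraries the genes nearest to LIF in level and pattern, by Euclidean distance of log2(TPM + 1), were KCNN4, a potassium channel (distance 0.437), IGFBP6, which binds insulin-like growth factors (0.457), and OAS2, an oligoadenylate synthetase. KCNN4 had a mean of 0.983 TPM in WT and 107 TPM in S127A.

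IL6, the inflammatory cytokine that gives the family its name, was listed at 0 in all 3 WT libraries. The S127A libraries held 1.49, 1.29 and 2.91 TPM, so IL6 appeared in each of them, but the third held about 2 times as much as the others. LIF exceeded IL6 at least 37.4 times in each of these libraries, and IL6 made up 1.14% to 2.51% of the summed ligands. The difference was 1.49 on the log2 scale, with no fold because of the zeros. Among the nearest genes were PNMA5 and MLXIPL (distances 0.462 and 0.484), which were likewise at or near 0 in WT and at 2.23 TPM or less on average in S127A.

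IL11, a cytokine active in megakaryocytes, stroma and fibrosis, stood at 0.66, 0.8 and 0.99 TPM in WT and at 4.47, 4.14 and 4.32 TPM in S127A. The groups were well apart and the S127A replicates nearly equal. The change was 1.55 (SE 0.0844, adjusted p = 1.22e-08), 5.28 times in mean TPM. IL11 was the second ligand in S127A, at 3.66% to 3.83% of the ligand sum, whereas in WT it had held 38.5% to 46.5% of a sum of about 2 TPM. OSM, a cytokine made mainly by activated macrophages and T cells, was at 0.06, 0 and 0 TPM in WT and at 0.06, 0.19 and 0.06 TPM in S127A. Its groups shared the value 0.06, and no difference was detectable at this level.

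LIF and OSM are neighbours. In mm10, by GENCODE, OSM (ENSMUSG00000058755.3) spans chr11:4236420-4241026 and LIF (ENSMUSG00000034394.14) chr11:4257557-4272514, both on the plus strand, 16530 bases apart with no protein-coding gene between them. LIF rose to 109 ± 1.74 TPM while OSM remained at 0.19 TPM or less, and HORMAD2, the next protein-coding gene on the far side of LIF, had means of 0.0600 ± 0.0520 and 0.203 ± 0.0651 TPM. Neither neighbour came near the level of LIF. IL6 (ENSMUSG00000025746.11) lies at chr5:30013114-30019981 on the plus strand and IL11 (ENSMUSG00000004371.15) at chr7:4772373-4782859 on the minus strand.

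The start regions that held a searched motif are shown, so that those of 3 ligands can be set beside that of SOCS3. RefSeq promoter sequences on GRCm38.p6, the mm10 assembly, were found for 8 of the 9 symbols, with 10 start sites in all; OSM had no entry. In the 250 bases before each start, both strands were searched for GGNNTTTCC (bound by NF-kB), TTCNNNGAA (bound by STAT factors), TGANTCA (bound by AP-1), TGACGTCA (the cyclic AMP response element) and TTGCNNAA (bound by C/EBP factors). The STAT, AP-1 and cyclic AMP letters are their own reverse complement. No motif overlapped another, and a match was found at 4 of the 10 starts, those printed here 5′ to 3′ on the gene's strand with the matches in capitals. The end nearest the start was left off where GENCODE places an exon in it, so LIF ends 12 bases and SOCS3 86 bases before the start. In the SOCS3 window 77 bases lie in an exon, so a few of those left off do not.
IL6, chr5:30012864-30013113, plus strand: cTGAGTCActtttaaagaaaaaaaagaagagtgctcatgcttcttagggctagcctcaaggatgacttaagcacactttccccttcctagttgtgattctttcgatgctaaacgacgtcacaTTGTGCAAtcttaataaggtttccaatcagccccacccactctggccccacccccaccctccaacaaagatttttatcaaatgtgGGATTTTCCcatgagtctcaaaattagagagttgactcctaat
LIF, chr11:4257318-4257556, plus strand: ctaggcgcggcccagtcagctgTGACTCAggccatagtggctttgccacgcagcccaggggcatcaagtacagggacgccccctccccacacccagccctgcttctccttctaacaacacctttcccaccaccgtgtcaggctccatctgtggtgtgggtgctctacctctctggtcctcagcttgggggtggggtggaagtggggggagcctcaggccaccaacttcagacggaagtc
IL11, second start, chr7:4778142-4778391, minus strand: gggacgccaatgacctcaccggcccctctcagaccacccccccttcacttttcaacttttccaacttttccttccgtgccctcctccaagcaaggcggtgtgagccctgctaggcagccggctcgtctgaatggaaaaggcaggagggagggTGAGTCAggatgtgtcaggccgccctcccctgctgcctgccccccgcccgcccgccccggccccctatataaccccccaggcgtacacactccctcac
SOCS3, chr11:117969452-117969616, minus strand: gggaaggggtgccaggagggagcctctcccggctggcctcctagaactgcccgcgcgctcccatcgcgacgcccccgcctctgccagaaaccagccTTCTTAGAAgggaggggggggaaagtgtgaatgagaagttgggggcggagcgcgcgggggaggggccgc

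IL6 held 3 of the 5 motifs, an AP-1 match beginning 249 bases before the start, then a C/EBP match and an NF-kB match at 43. LIF and IL11 each held only an AP-1 match, at 228 and 98 bases before the start, and SOCS3 only a STAT match, at 154. The printed IL11 and SOCS3 windows lie inside the longer gene bodies that GENCODE draws. Of all 32851 promoters in the table, 6.75% held the AP-1 letters, 9.56% the C/EBP letters, 4.93% the NF-kB letters, 7.02% the STAT letters and 1.55% the cyclic AMP response element, so single matches are found at many promoters. The first IL11 start and the starts of IL6ST, LIFR, OSMR and SOCS1 held none of the 5 in this window. A match is a run of letters and not evidence of binding, which was not measured.

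IL6ST, the gp130 chain that IL6, IL11, LIF and OSM all use, was the most abundant of the 9 genes in WT, at 50.93, 55.08 and 52.31 TPM. The S127A libraries held 79.47, 77.6 and 82.1 TPM, all above the WT range. This was a rise of 1.51 times in mean TPM, or 0.59 on the log2 scale (SE 0.0405, adjusted p = 9.88e-08). Of the tested genes 24.5% had a larger rise. NAGK, CCDC9 and PKN2 lay nearest in pattern (distances 0.0896, 0.126 and 0.144). IL6ST (ENSMUSG00000021756.12) is at chr13:112464070-112510086 on the plus strand.

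OSMR, the chain that makes gp130 responsive to OSM, stood at 1.34, 1.52 and 1.24 TPM in WT and at 2.68, 2.51 and 2.55 TPM in S127A. It rose by 0.60 (SE 0.0763, adjusted p = 2.00e-05), 1.89 times in mean TPM, and remained at 3.26% or less of the receptor sum. LIFR, which LIF needs beside gp130, was low throughout. It stood at 0.63, 0.73 and 0.44 TPM in WT and at 0.16, 0.16 and 0.43 TPM in S127A. The highest S127A value lay just under the lowest WT value, and the difference of −0.36 was not tested because the mean was under 1 TPM. In the libraries with about 109 TPM of LIF, LIFR was thus listed at 0.43 TPM or less. In WT, LIF and LIFR were closer, at 1.12 ± 0.166 and 0.600 ± 0.147 TPM.

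The receptor genes LIFR (ENSMUSG00000054263.12, chr15:7090614-7197489, plus strand) and OSMR (ENSMUSG00000022146.12, chr15:6813577-6874969, minus strand) also lie side by side, 215644 bases apart with no protein-coding gene between them. OSMR was higher and LIFR lower in S127A. RICTOR, the mTORC2 subunit on the other side of OSMR, fell by 0.19 (adjusted p = 0.00207), from 30.2 ± 1.07 to 26.4 ± 0.539 TPM.

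SOCS3, the feedback inhibitor of gp130 itself, stood at 2.43, 2.83 and 2.94 TPM in WT and at 11.65, 12.27 and 11.37 TPM in S127A. The groups were far apart, and the mean rose 4.30 times (log2 change 1.78, SE 0.0724, adjusted p = 1.02e-09). AHR, the aryl hydrocarbon receptor, FAM199X and TBC1D2 were nearest to it (distances 0.317, 0.329 and 0.412). SOCS1 stood at 1.69, 1.48 and 1.79 TPM in WT and at 11.69, 13.05 and 9.56 TPM in S127A. It rose 6.92 times (log2 change 2.22, SE 0.102, adjusted p = 2.88e-09), with more spread among the S127A libraries than SOCS3. In WT every SOCS3 value was above every SOCS1 value, whereas in S127A the ranges of both genes overlapped. SOCS3 (ENSMUSG00000053113.3) is at chr11:117966079-117970047 and SOCS1 (ENSMUSG00000038037.5) at chr16:10782240-10785536, both on the minus strand.

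Ordered by level, the WT libraries ran IL6ST, SOCS3, SOCS1, OSMR, LIF, IL11, LIFR, OSM and IL6. From SOCS1 down to LIFR each gene's range overlapped that of the next, as did those of OSM and IL6, so only IL6ST, SOCS3 and the step from LIFR to OSM were set apart by more than the spread. The S127A libraries ran LIF, IL6ST, SOCS3, SOCS1, IL11, OSMR, IL6, LIFR and OSM. LIF stood above IL6ST in every one of them, and the pairs SOCS3 and SOCS1, OSMR and IL6, and LIFR and OSM overlapped.

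**Figure D2:**
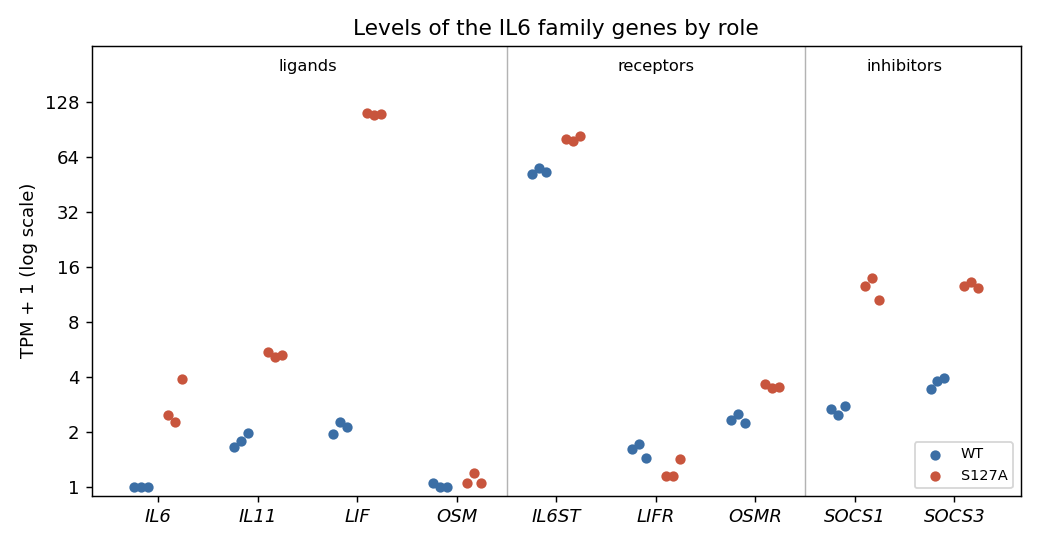
TPM + 1 on a log scale (y axis) of the 9 genes, grouped as ligands, receptors and inhibitors; each point is 1 library, WT in blue and S127A in red. LIF is near 2 on this scale in WT and above IL6ST in S127A, while LIFR stays under 2 on this scale in all 6 libraries.

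Among other ligands grouped with this family, the one with a large difference was CLCF1, a neurotrophic cytokine. CLCF1 stood at 1.88, 0.83 and 1.22 TPM in WT and at 29.39, 31.55 and 30.67 TPM in S127A, a rise of 3.80 (SE 0.133, adjusted p = 2.82e-10). Its annotated span overlaps another protein-coding gene on the same strand, AC109138.7, which is not listed, so its level is uncertain. CNTF rose from 2.12 ± 0.842 to 3.72 ± 0.556 TPM (0.63, adjusted p = 0.00701), but it overlaps ZFP91 in the same way. CTF1 differed by −0.10 (adjusted p = 0.347) and went the other way and passed with quantile normalization (0.40, adjusted p = 0.00302). EBI3, a subunit of IL27, was at 0.227 ± 0.101 and 1.19 ± 0.429 TPM, and IL27 at 0.12 and 0.23 TPM or less. In all, 2 of the 3 tested ligands rose, as did 40.2% of all tested genes, and IL31 was not found under that symbol.

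The chains that give cells access to particular cytokines changed in both directions. CNTFR, the anchored chain for CNTF and CLCF1, had the largest fall among them, with 54.85, 54.4 and 55.69 TPM in WT and 0.13, 0.07 and 0.33 TPM in S127A (−5.58, SE 0.0822, adjusted p = 2.69e-13). It entered the test through its WT level alone and so had to differ. In WT it stood level with IL6ST in TPM, and in S127A it was at 0.33 TPM or less in libraries where its ligand CLCF1 was listed near 30 TPM. IL6R, the chain that binds IL6, rose from 0.31, 0.62 and 0.44 TPM to 4.5, 4.47 and 5.46 TPM (10.5 times in mean TPM, adjusted p = 6.63e-09), entering the test through its S127A level alone. IL11RA was listed at 0.12 TPM or less in WT and at 0 in S127A; the mouse has near-identical copies of this gene, so its level is uncertain. IL27RA and IL31RA were under 1 TPM in all libraries. In the S127A libraries IL6R was thus above 4 TPM, while LIFR and CNTFR, which LIF and CLCF1 respectively need beside gp130, were each under 0.5 TPM. ADAM10 and ADAM17, proteases that shed IL6R from the cell surface, fell by 1.17 and 1.22 (adjusted p = 3.91e-10 and 5.31e-10), from 81.5 ± 3.79 to 35.6 ± 0.851 TPM and from 68.7 ± 2.67 to 28.9 ± 1.27 TPM.

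**Figure D3:**
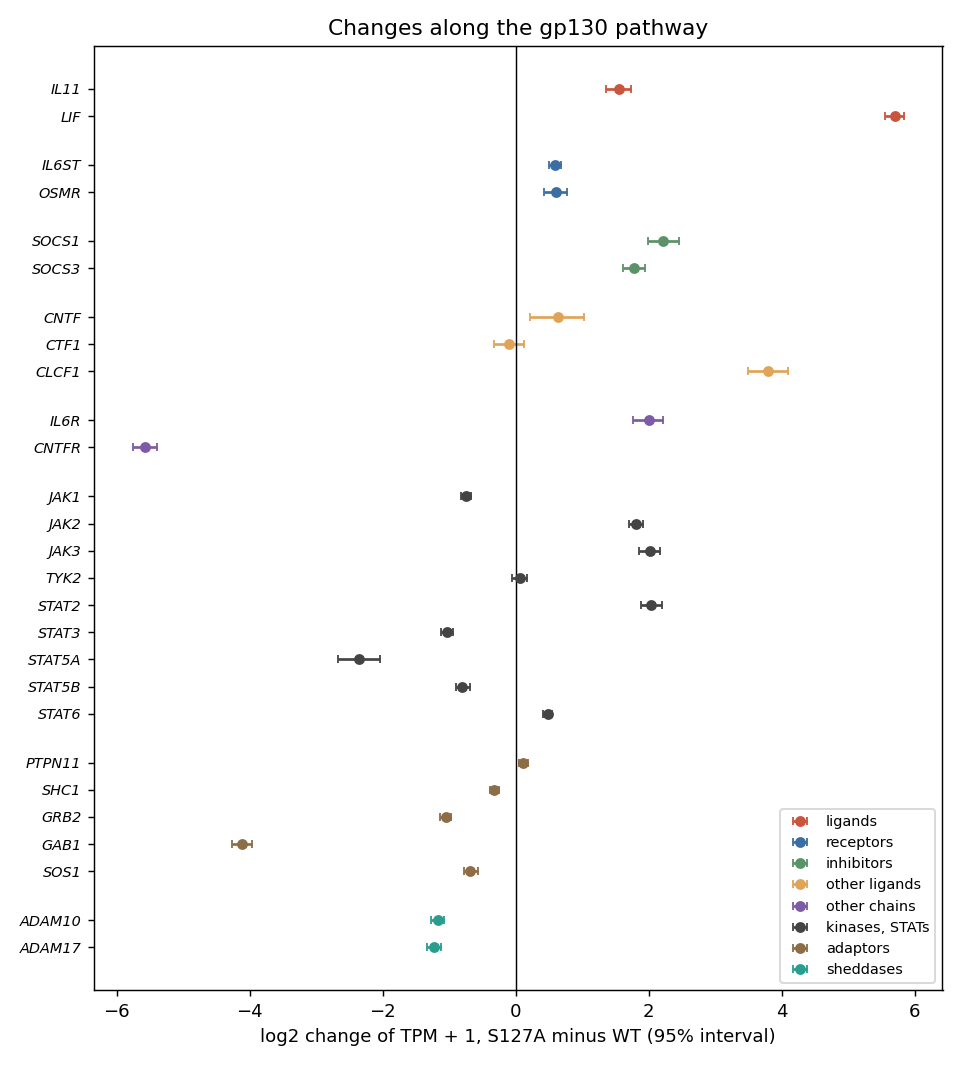
Change of log2(TPM + 1), S127A minus WT (x axis), of the tested genes among the 9 and among the other ligands, receptor chains, kinases, STAT factors, adaptors and proteases that the text names, with 95% intervals from limma over 3 WT and 3 S127A libraries; colours mark the role. LIF at 5.70 and CNTFR at −5.58 are the highest and the lowest of the genes plotted, and the STAT3 interval lies wholly below 0.

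Downstream of the receptors, the 10 kinases and STAT factors split, with 5 higher, 4 lower and TYK2 not passing. Over all tested genes 40.2% were higher and 49.8% lower. STAT3, the main factor of gp130 signalling, fell from 45.11, 44.66 and 43.69 TPM to 21.34, 21.13 and 21.23 TPM (−1.03, SE 0.0397, adjusted p = 6.09e-10). JAK1, the kinase that gp130 chiefly depends on, fell from 96.0 ± 1.62 to 56.9 ± 0.995 TPM (−0.74, adjusted p = 2.23e-09), while JAK2 rose 3.64 times to 61.8 ± 1.03 TPM (1.81, adjusted p = 2.07e-11). The 4 Janus kinases summed to 136 to 139 TPM in WT against 156 to 164 TPM, and JAK1 went from 69.2% to 70.3% of it in WT to 35.2% to 36.4% in S127A. JAK3, STAT2 and STAT6 also rose, the last picked out after seeing its values, and STAT5A and STAT5B fell. JAK3 shares its span with INSL3 on the same strand, so its level is uncertain. STAT3 and STAT5A overlap on opposite strands, as do JAK1 and RAVER2, STAT6 and NAB2, and ADAM17 and IAH1, so without a stated strand setting their reads may be shared. The same limit holds for CTF1, SOS1, PIAS3, NFKB2, JUNB, FOSL1 and TIMP1, which also overlap a protein-coding gene on the opposite strand. TYK2 differed by 0.06 (adjusted p = 0.243) and passed with TMM factors (0.18, adjusted p = 0.00521), quantile normalization (0.15, adjusted p = 0.0137) and a common total (0.11, adjusted p = 0.0454).

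Of the 5 adaptors that carry the signal toward ERK, 4 fell, as did 49.8% of all tested genes. GAB1, the docking protein, was at 16.55, 16.71 and 16.58 TPM in WT and at 0.01, 0.01 and 0.03 TPM in S127A (−4.11, adjusted p = 4.15e-13), entering the test through WT alone. GRB2 fell by 1.05, SOS1 by 0.68 and SHC1 by 0.32. PTPN11, the SHP2 phosphatase that docks on the same gp130 tyrosine as SOCS3, rose by 0.11 (adjusted p = 0.00448).

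The other negative regulators went both ways, 5 of 11 being higher and 6 lower, against 40.2% and 49.8% of all tested genes. SOCS2, an inhibitor of growth hormone signalling, went from 0.54, 1.02 and 0.55 TPM to 18.36, 18.88 and 19.74 TPM (3.56, SE 0.103, adjusted p = 5.43e-11), which placed it above SOCS3 in S127A. It entered the test through S127A alone, since its WT mean was under 1 TPM, and CISH through WT alone, so both had to differ. SOCS5 rose from 19.3 ± 1.19 to 54.4 ± 0.603 TPM and PIAS3, an inhibitor of STAT3, from 13.4 ± 0.248 to 22.7 ± 1.73 TPM. SOCS6 rose by 0.36. SOCS4 rose by 0.14 (adjusted p = 0.0319), a call lost without WT replicate 2 (adjusted p = 0.0946), WT replicate 3 (0.0614), S127A replicate 1 (0.102) or S127A replicate 3 (0.0856). PTPN1 fell from 41.1 ± 1.02 to 26.8 ± 0.301 TPM. SOCS7, CISH, PIAS1, PTPN2 and PTPN6, picked out after seeing their values, also fell, the last of them losing its call with TMM factors (−0.12, adjusted p = 0.134) or quantile normalization (−0.13, adjusted p = 0.109).

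Factors known to act on the IL6 promoter were mostly higher: 11 of 15 rose and 4 fell. Their median change was 0.74 on the log2 scale. Over all tested genes 40.2% rose, 49.8% fell and the median was −0.12. The AP-1 subunit JUNB rose from 29.4 ± 2.19 to 224 ± 3.10 TPM and NFKBIZ, a nuclear cofactor of NF-kB needed for IL6 induction in macrophages, from 7.17 ± 0.127 to 62.0 ± 2.96 TPM. FOSL1 rose by 8.19 and NFKB2 by 1.25. FOSL1 entered the test through S127A alone and so had to differ, and the counts and the median of this list include it. The 4 that fell were the AP-1 subunits JUN, JUND and FOS (by 0.50, 0.56 and 1.29) and CREB1 (by 0.15, adjusted p = 0.0296). The call of CREB1 was lost with TMM factors (−0.03, adjusted p = 0.602), quantile normalization (0.175) or a common total (0.137), and also without WT replicate 1 (0.121), S127A replicate 2 (0.0822) or S127A replicate 3 (0.0894).

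Of 7 proteins that control the life of IL6 mRNA, 5 were higher and 2 lower, against 40.2% and 49.8% of all tested genes. ZC3H12A (Regnase-1), an RNase that cleaves IL6 mRNA, rose from 7.38 ± 0.446 to 31.3 ± 1.10 TPM, and ARID5A, which protects it, from 14.4 ± 0.223 to 39.5 ± 1.13 TPM. ZFP36 (tristetraprolin), which destabilises AU-rich mRNAs, rose from 8.90 ± 0.360 to 25.5 ± 1.84 TPM, its relative ZFP36L2 from 33.6 ± 0.585 to 150 ± 2.21 TPM and RC3H1 (Roquin-1) by 0.35. ZFP36L1 fell by 0.51. RC3H2 fell by 0.15 (adjusted p = 0.0154) and lost its call with TMM factors (−0.03, adjusted p = 0.526), quantile normalization (0.104) or a common total (0.0906), and also without WT replicate 1 (0.0617), S127A replicate 2 (0.0533) or S127A replicate 3 (0.0549). The protecting factor ARID5A and the destabilising factors ZC3H12A and ZFP36 were thus higher in S127A, as were ZFP36L2 and RC3H1. ZFP36L1 was lower, and the lower call of RC3H2 depended on the setting.

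Of 18 known STAT3 targets 17 were listed and 14 tested, of which 12 rose, 1 fell and 1 did not pass, and their median change was 1.43 on the log2 scale. Over all tested genes 40.2% rose, 49.8% fell and the median was −0.12. The list holds genes that NF-kB also induces, and earlier results of these data were known when it was written. MYC rose from 33.7 ± 2.19 to 187 ± 7.51 TPM, and TIMP1, an inhibitor of metalloproteinases, by 2.38 on the log2 scale. LCN2 (lipocalin-2) stood at 0.293 TPM on average in WT and at 1140 TPM in S127A, and TNFRSF1B, a TNF receptor, at 0.200 and 25.4 TPM. Both entered the test through S127A alone, as did ICAM1, and so had to differ. The counts and the median of this list include these genes and are a description only. The survivin gene BIRC5 fell by 0.59, and BCL3 stood at 4.23 ± 0.431 and 3.84 ± 0.675 TPM (adjusted p = 0.310). These levels were measured in the libraries where STAT3 itself stood at 21.2 ± 0.105 TPM against 44.5 ± 0.726 TPM in WT. Over all lists beyond the 9 genes, 78 of 82 symbols were listed, 70 were tested, 42 rose and 25 fell. The group mean was under 1 TPM in WT or S127A for 10 of the 70, which entered the test through the other group and so had to differ.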

How the data were processed

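The series holds RNA-seq of 6 libraries, 3 WT and 3 S127A, grouped and numbered by their titles. Random hexamers primed the cDNA and BGI sequenced it, per the labels' protocols. The deposited table gives TPM under upper-case symbols, per the file headers, with mm10 as the build, per the submitters' processing notes. How reads were aligned, quantified and assigned to strands is not given in the sources used here. Column sums ranged from 830745 to 864529 TPM, so 13.5% to 16.9% of the total lies outside the table. Depth is unknown, so errors are the spread over replicates.

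Genes averaging at least 1 TPM were tested on log2(TPM + 1) with limma 3.58.1 in R 4.3.3 (lmFit, eBayes with trend), two-sided, with Benjamini-Hochberg adjustment across 10348 genes and a threshold of 0.05. The fit was tested on simulated data. These held far fewer changed genes than the real data and left out genes of low WT level, so that test does not cover the setting here. Intervals are 95% from the same fit. TMM factors (trimmed means of log ratios) were computed without weights on the TPM values. Summaries used Python 3.11.15. Positions and overlaps come from GENCODE on mm10 and promoters from RefSeq on GRCm38.p6. None of the 9 genes shared its values with another symbol or overlapped another annotated gene. Libraries of one group had identical values for at most 1.884% of tested genes.

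The 9 genes and all lists were chosen with earlier results of these data known. Named genes were all 9, every gene of lists of up to 8 and, of longer lists, the 4 with the smallest adjusted p and those against the majority, plus the 3 nearest genes of IL6, LIF, IL6ST and SOCS3. A few of these are not reported here. As alternatives the pseudocount was 0.1 or 5, the filter was dropped or raised to 5 TPM, values were scaled by TMM factors, quantiles or a common total, limma ran without trend or with robust hyperparameters, the replicate number served as a block, and each library was left out in turn.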

Additional observations from a re-analysis of the deposited data

How the results depend on the processing

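LIF, IL11, IL6ST, OSMR, SOCS1 and SOCS3 remained higher in S127A and past the threshold under each of the 16 alternatives that tested them; with a mean of at least 5 TPM IL11 and OSMR were not tested. The change of LIF ran from 4.22 (pseudocount 5) to 6.49 (pseudocount 0.1) and, leaving the pseudocounts aside, from 5.64 to 6.01. TMM factors moved the median of all tested genes from −0.12 to 0.00 and the higher share of changed genes from 44.7% to 49.9%, and turned none of the 6. Without a filter IL6 (1.49, adjusted p = 1.34e-04) and LIFR (−0.36, adjusted p = 0.0130) passed and OSM did not (0.11, adjusted p = 0.103). Leaving out each WT replicate in turn brought IL6 over the filter through its S127A level alone, so it had to differ (adjusted p of 5.98e-05 to 9.98e-05). CTF1 turned with quantile normalization (0.40); the cause was not tested. Of 1117 values for other genes of the lists, 18 lost and 3 gained a call, besides the 1 of CTF1 that turned and passed.

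The labels do not say whether the replicate numbers pair the libraries, and the correlations cannot settle it. Across genes, deviations of same-numbered libraries correlated at r from 0.0174 to 0.117. For different-numbered libraries r ran from −0.0757 to 0.0544, and not every library correlated best with its own number. With the replicate number as a block 9339 genes changed in place of 9315, and the 6 genes kept their calls. Low TPM limits IL6, OSM and LIFR most, since their depth is unknown.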
